A study of Homo sapiens with 2 samples.

Results

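The 10 genes examined encode the subunits of the transcription factor NF-κB and the proteins that restrain it. They were chosen by name, with earlier results of these data known. Each was looked up in the authors' deposited list of C/EBPβ peaks paired with RefSeq transcripts. The 5 subunit genes were NFKB1, NFKB2, REL, RELA and RELB, and the 5 inhibitor genes were NFKBIA, NFKBIB, NFKBIE, NFKBIZ and TNFAIP3. They are 10 of the 19392 protein-coding genes used as background. The list comes from chromatin immunoprecipitation followed by sequencing (ChIP-seq) in HL-60, a human myeloid leukaemia line labelled as myeloblast, that overexpressed C/EBPβ, a transcription factor of the basic leucine zipper family. The series has 1 ChIP library, for which an antibody from Santa Cruz raised against C/EBPβ was used, and 1 input library of HL-60 cells with the same overexpression, for which the labels give no antibody. The question named by the study was which genes are C/EBPβ targets in these cells. How C/EBPβ was expressed, whether the line was 1 clone, and the read depth were not given in the sources used here. Further, the input library was not analysed here. Cells without overexpression were also not analysed here, so binding at the ordinary level of the factor is not described. RNA was not measured, so the label of the cells could not be set against marker expression.

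NF-κB acts as a dimer. In resting cells inhibitors of the IκB family hold the dimers in the cytoplasm, and a kinase complex activated by cytokine or microbial receptors marks these inhibitors for destruction, which frees the dimers to enter the nucleus. Several inhibitors are themselves NF-κB target genes and close a negative feedback loop. In myeloid cells NF-κB drives inflammatory genes, and at some of them C/EBPβ and NF-κB sites lie side by side.

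Of the 10 genes, 4 had at least 1 listed C/EBPβ peak (40.0%, exact 95% interval 12.2 to 73.8), against 26.5% of all protein-coding genes. These were 1 of the 5 subunit genes, NFKB1 (20.0%, interval 0.505 to 71.6), and 3 of the 5 inhibitor genes, NFKBIA, NFKBIB and TNFAIP3 (60.0%, interval 14.7 to 94.7). The intervals overlap each other and the background share, and with 1 ChIP library the difference between subunits and inhibitors was not tested. Since the genes were chosen with earlier results of these data known, these shares are not independent evidence. The list held 13 pairs for these genes, formed by 6 peaks and 9 transcripts, out of 17637 pairs, 7029 peaks and 12532 transcripts in all. No listed peak was paired with NFKB2, REL, RELA, RELB, NFKBIE or NFKBIZ. The list reaches 3000 bases to either side of a start, so peaks farther away are not covered, and a gene without a listed peak is not shown to be unbound.

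**Figure D1:**
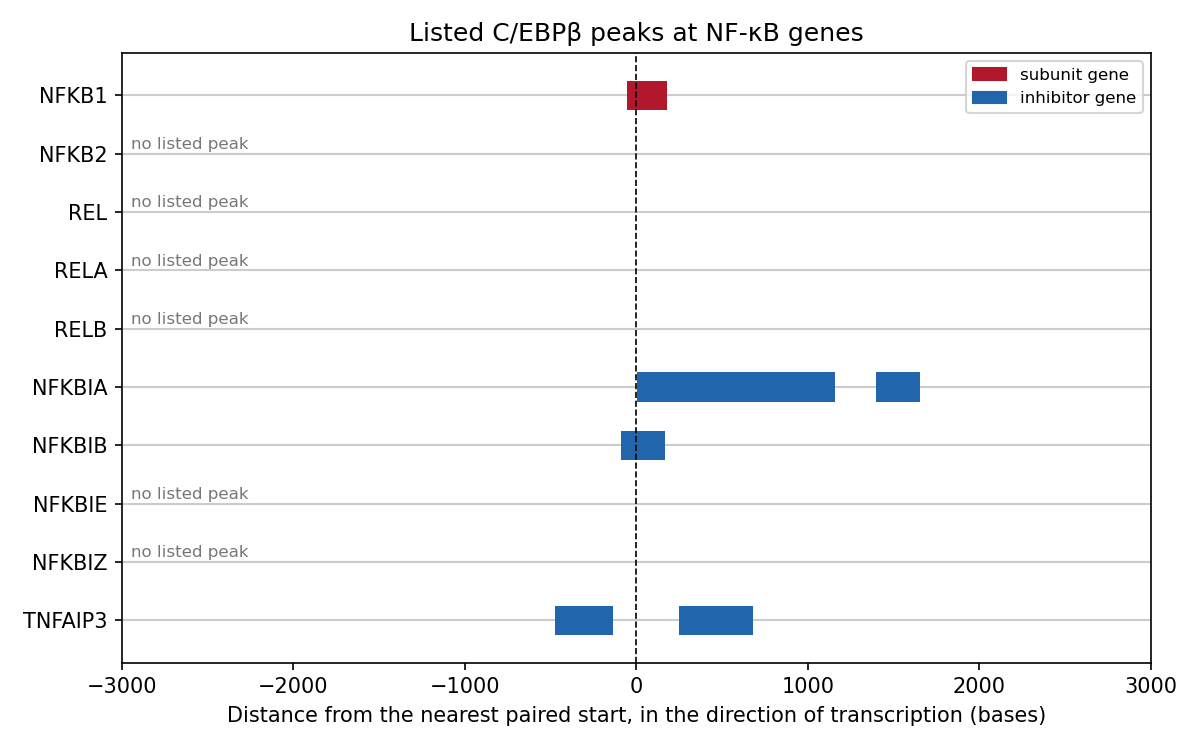
Listed C/EBPβ peaks at the 10 NF-κB genes, from the 1 ChIP library. The horizontal axis is the distance in bases from the nearest paired start, in the direction of transcription. Red bars are peaks of subunit genes and blue bars peaks of inhibitor genes, drawn from edge to edge. NFKB1 and NFKBIB have 1 peak over the start, TNFAIP3 has 1 peak on each side, NFKBIA has 2 on the gene side and the other 6 genes have no listed peak.

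Promoter sequence is shown for listed genes and, as a contrast, for REL, which had no listed peak. RefSeq promoter windows of GRCh38 were found for 8 of the 10 genes, in 14 windows. Except for NFKBIB, each sequence is the 250 bases before the most upstream start in that table, on the strand of the gene and written 5′ to 3′. Capitals mark matches to the NF-κB consensus, the decamer bound by NF-κB dimers, on either strand. This consensus was chosen after the sequences had been seen. The windows are chr4:102501109-102501358 on the plus strand for NFKB1, chr14:35404750-35404999 on the minus strand for NFKBIA, chr6:137867009-137867258 on the plus strand for TNFAIP3 and chr2:60881324-60881573 on the plus strand for REL. The peaks are on hg19 and the windows on GRCh38, and starts in the 2 sources can differ, so no peak was placed on these letters.
NFKB1: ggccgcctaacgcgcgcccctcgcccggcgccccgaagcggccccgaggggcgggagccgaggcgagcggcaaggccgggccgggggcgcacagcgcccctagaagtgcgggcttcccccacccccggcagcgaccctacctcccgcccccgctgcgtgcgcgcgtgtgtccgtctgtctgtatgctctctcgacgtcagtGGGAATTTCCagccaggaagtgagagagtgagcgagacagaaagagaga
NFKBIA: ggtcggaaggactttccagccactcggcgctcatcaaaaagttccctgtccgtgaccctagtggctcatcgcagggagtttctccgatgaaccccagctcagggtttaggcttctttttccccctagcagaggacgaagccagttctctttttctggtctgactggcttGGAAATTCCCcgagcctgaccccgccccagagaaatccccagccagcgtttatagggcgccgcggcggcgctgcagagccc
TNFAIP3: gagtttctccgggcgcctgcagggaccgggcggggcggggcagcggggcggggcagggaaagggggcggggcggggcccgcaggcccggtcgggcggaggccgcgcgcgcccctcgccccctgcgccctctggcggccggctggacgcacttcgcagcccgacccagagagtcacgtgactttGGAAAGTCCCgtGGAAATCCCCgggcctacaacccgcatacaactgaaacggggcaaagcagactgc
REL: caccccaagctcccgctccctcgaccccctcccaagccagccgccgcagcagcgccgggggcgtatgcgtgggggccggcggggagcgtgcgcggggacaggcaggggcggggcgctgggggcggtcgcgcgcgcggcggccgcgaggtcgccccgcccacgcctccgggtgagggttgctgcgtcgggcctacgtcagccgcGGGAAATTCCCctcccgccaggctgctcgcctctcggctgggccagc
For NFKBIB, whose neighbourhood is transcribed in both directions, only 30 bases around its matches are shown. The window before the first of its 2 starts in the table held no consensus match. In the list, the NFKBIB peak covered the more upstream of its 2 listed starts and not the other. The 30 bases lie before the second start in the table, at chr19:38899931-38899960 of GRCh38 on the plus strand.
NFKBIB: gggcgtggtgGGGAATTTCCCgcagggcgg

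The matches lay 49 to 40 bases before the start at NFKB1, 81 to 72 bases before it at NFKBIA, and 67 to 58 and 55 to 46 bases before it at TNFAIP3. At NFKBIB 2 overlapping matches covered bases 28 to 18 before the second start. At REL 2 overlapping matches covered bases 47 to 37 before the start, so a gene with no listed C/EBPβ peak also carried the letters. Of the 8 genes with a window, 7 held a match in at least 1 window, RELA being the exception, against 7.59% of the 15489 protein-coding genes with a window. Because the consensus was chosen after these sequences had been seen, this contrast is not independent evidence. The 8 genes also had 14 windows, against 21791 windows for the 15489 genes. A looser frame of the same length (3 G, 5 free letters, 2 C), searched on both strands and met by every consensus match, was in windows of all 8 genes and of 69.8% of genes. C/EBP letters, TTNNGCAA on either strand, were in the windows of 0 of the 8 genes, against 9.87% of genes. At that share, a set of 8 genes can hold none without differing from other genes. The windows hold only bases before a start, whereas both NFKBIA peaks and the farther TNFAIP3 peak lay past it. The count therefore cannot show whether the listed peaks hold C/EBP letters. Across windows of the whole genome, C/EBP letters occurred in 8.48% of those of genes with a listed peak and in 7.12% of those of genes without one. A match is a description of letters and not of a bound site. The windows of the 8 genes had a median GC content of 68.8%, against 62.0% over all 21791 windows.

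Among subunit genes, NFKB1 was the one with a listed peak. NFKB1 encodes a precursor protein that is processed to a DNA-binding subunit without an activation domain of its own. Its peak lay at 103422430 to 103422663 on chromosome 4 (hg19), 233 bases wide, and was paired with the transcripts NM_001165412 and NM_003998, which share a start at 103422485. The peak middle was 61 bases past the start, and the peak ran from 55 bases before the start to 178 bases after it. It was not paired with any other gene. Of the genes with a listed peak, 16.1% had one nearer to a start. Coordinates are given as the list has them, and the list does not state whether they count from 0 or 1.

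The other subunit genes had no listed peak. RELA and REL encode subunits with activation domains, RELB a subunit of the alternative pathway, and NFKB2 a precursor whose processing releases the usual partner of RELB. They are annotated with 2 to 11 curated transcripts, RELA with 11, NFKB2 with 6, REL with 3 and RELB with 2, whereas NFKB1 has 7. Each of these 4 genes had a listed peak at the adjacent protein-coding gene on 1 side in GRCh38 order and none at the adjacent gene on the other side. PUS10, next to REL, had 2 peaks with the nearest 71 bases from a start, SIPA1, next to RELA, had 1 at 283 bases, and CLPTM1, next to RELB, had 1 at 90 bases. PSD, next to NFKB2, had 1 at 1209 bases. PAPOLG, KAT5, CLASRP and GBF1, on the other side of REL, RELA, RELB and NFKB2 in that order, had none listed. These neighbours were named after their values were seen, and 26.5% of all protein-coding genes had a listed peak. The same arrangement was found at NFKBIA and NFKBIB, which had listed peaks themselves. NFKB1 had a listed peak at both adjacent genes, and NFKBIE, NFKBIZ and TNFAIP3 at neither.

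NFKBIA encodes IκBα, the inhibitor that is degraded on stimulation and made again as an early NF-κB target. It had 2 peaks on chromosome 14 (hg19), at 35872308 to 35872565 and at 35872802 to 35873955, both paired with NM_020529, whose start lies at 35873960. The peaks were 257 and 1153 bases wide, and 237 bases separated them. Their middles were at −1524 and −582 bases in genome direction. With the minus strand given for NFKBIA in the promoter table, both lay on the gene side of the start. The wide peak began 5 bases past the start and ended 1158 bases past it. Only 12 of the 7029 listed peaks were wider, and 28 protein-coding genes (0.144%) had a peak wider than 1000 bases. Of the 923 genes with 2 peaks and a known strand, 261 (28.3%) had both on the gene side.

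NFKBIB encodes IκBβ, a second cytoplasmic inhibitor. Its peak was at 39390248 to 39390505 on chromosome 19 (hg19), 257 bases wide, and was paired with 3 of its transcripts at 2 starts. The middle was 37 bases past the start of NM_001243116 and −193 bases from the start shared by NM_002503 and NR_040515. The same peak was paired with SIRT2, which encodes a protein deacetylase and lies on the opposite strand in the promoter table, at −87 and −126 bases from its 2 starts. The peak covered both SIRT2 starts and 1 of the 2 NFKBIB starts, so which gene it belongs to cannot be told apart. Of all listed peaks, 24.0% held a start and 21.6% were paired with more than 1 gene.

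TNFAIP3 encodes a ubiquitin-editing enzyme that shuts down signalling upstream of the IκB kinases. Its 2 peaks flanked the start at 138188324 on chromosome 6 (hg19), which is shared by 3 transcripts. They lay at 138187849 to 138188187, 338 bases wide with the middle 306 bases before the start, and at 138188575 to 138189002, 427 bases wide with the middle 464 bases after it. A gap of 388 bases that holds the start separated them. Of the 923 genes with 2 peaks and a known strand, 47.8% had 1 on each side of the start. Both peaks were also paired with WAKMAR2, a noncoding RNA gene given in the list as LOC100130476, at −1352 and −582 bases. TNFAIP3 was the nearer gene for each. The peak pairs at NFKBIA and TNFAIP3 carry neighbouring peak numbers, and their gaps were smaller than the median of 637.5 bases among the 1106 genes with 2 peaks. Still smaller gaps were found at 26.6% of these genes for NFKBIA and at 36.5% for TNFAIP3.

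The remaining inhibitor genes, NFKBIE and NFKBIZ, had no listed peak. NFKBIE encodes the cytoplasmic inhibitor IκBε. NFKBIZ encodes IκBζ, a nuclear member of the family that also activates some inflammatory genes, so its place among inhibitors is by family and not by function alone. Of the 6 protein-coding neighbours in GRCh38 order, 3 on each side, 1 was listed for NFKBIE and 2 for NFKBIZ. Over all 6 members without a listed peak, 17 of 36 neighbours had one, and over the 4 members with a peak 13 of 24 did, against 26.5% of all protein-coding genes. The 13 include SIRT2, whose only listed peak is the one paired with NFKBIB. Neighbours at 1 locus are not independent of each other, and the difference from all genes was not tested.

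Subunits and inhibitors were then set side by side in peak number, width and distance. Subunit genes had 1 peak in all, or 0.2 per gene, and inhibitor genes 5, or 1.0 per gene, against a mean of 0.377 over all protein-coding genes. At least 2 peaks were listed for 0 of 5 subunit genes and 2 of 5 inhibitor genes, against 7.98% of all protein-coding genes. Width was 233 bases for the subunit peak, and for inhibitor peaks it ranged from 257 to 1153 bases with a median of 338, against a median of 229 bases over all 7029 peaks. All 6 peaks were wider than that median, and 3, both at TNFAIP3 and the wide one at NFKBIA, were wider than 314 bases, the 75th percentile. A peak middle lay within 1000 bases of a start for 4 of the 10 genes (40.0%), against 20.9% of all protein-coding genes. The nearest peak was 61 bases from a start for the subunit gene, and 37, 306 and 582 bases for NFKBIB, TNFAIP3 and NFKBIA, against a median of 265 bases over all listed genes. The subunit distance thus lay between those of the inhibitors, and a single subunit peak gives no spread. Leaving out peaks that are also paired with another gene removes NFKBIB and TNFAIP3, and leaves NFKB1 and NFKBIA (2 of 10 genes, against 18.6% of all genes).

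**Figure D2:**
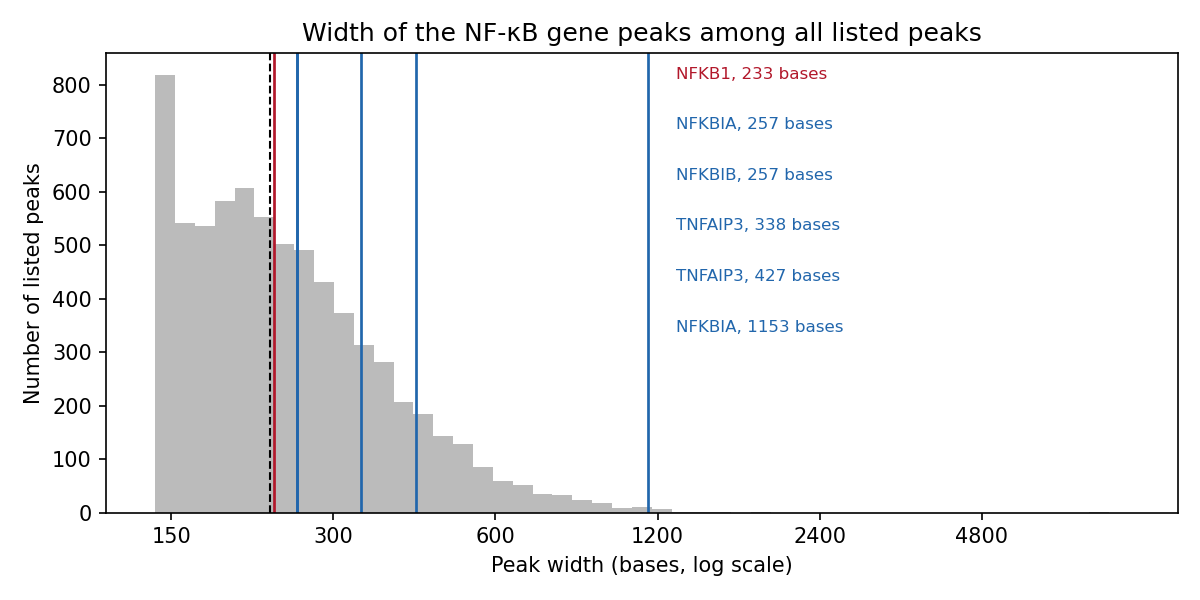
Widths of all 7029 listed peaks (grey, horizontal axis in bases on a log scale, vertical axis the number of peaks) with the 6 peaks at NF-κB genes as vertical lines, red for the subunit gene and blue for inhibitor genes. The dashed line is the median of 229 bases. The 1153-base peak at NFKBIA stands in the far tail, and the other 5 lie between 233 and 427 bases.

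Other genes of the pathway were examined in 4 lists, by their place in it. These lists too were drawn up with earlier results of these data known, so their shares are descriptive only. Some of their peaks are also paired with other genes. Among 26 kinases and adaptors that carry signals to NF-κB, 8 had a listed peak (30.8%, exact 95% interval 14.3 to 51.8), against 26.5% of all protein-coding genes. MALT1, a protease and scaffold of antigen receptor signalling, had 2 peaks, of which the nearest lay at −108 bases and was 610 bases wide. MAP3K8, a kinase bound and held in check by the NFKB1 precursor, had 3 peaks with the nearest at −261 bases. TANK, an adaptor of TRAF proteins, had 1 peak 386 bases from a start and 660 bases wide. Of the genes of the IκB kinase complex, CHUK and IKBKB had none listed. IKBKG, the regulatory subunit of that complex, had 2 at 1069 and −1754 bases. A pseudogene copy of IKBKG exists, and whether reads at these 2 peaks are ambiguous was not tested. The related kinase gene IKBKE had 2 peaks, the nearest at −2072 bases. BCL10, a partner of MALT1, had none listed.

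The list named for the linear ubiquitin complex and cIAPs also held XIAP, UBE2N and UBE2V1. Of its 8 genes, 3 had a listed peak (37.5%, interval 8.52 to 75.5), against 26.5% of all protein-coding genes, a share inside that interval. These were RBCK1, a subunit of the complex, at 192 bases, SHARPIN, another subunit, at −432 bases, and BIRC3, a ubiquitin ligase, at −2469 bases. BIRC2, RNF31 and UBE2N were without a listed peak.

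Among 18 other inhibitors and brakes, 6 had a listed peak (33.3%, interval 13.3 to 59.0), near the share of all protein-coding genes. The nearest were at IRAK3, a kinase-like brake on Toll-like receptor signalling, at −6 bases, at NFKBIL1 at 14 bases and at TAX1BP1, an adaptor of the TNFAIP3 protein, at 41 bases. NFKBID, which encodes a nuclear IκB protein, had 4 peaks, the nearest 831 bases away in absolute distance. BCL3, another nuclear IκB gene, had none listed, nor did COMMD1 or CYLD, a deubiquitinase.

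Genes known as NF-κB targets in other cells had the highest share of the 4 lists, with 18 of 28 listed (64.3%, interval 44.1 to 81.4), against 26.5% of all protein-coding genes. The list includes inflammatory mediators such as CXCL8, TNF and IL1B, whose peaks were known when it was drawn up. Neither its share nor its distances are therefore independent evidence. CFLAR, an inhibitor of caspase activation, had 3 peaks with the nearest at −16 bases. BCL2A1, a survival protein gene of the BCL2 family, had 1 at −28 bases and 538 bases wide. IER3, an immediate early gene, had 3 with the nearest at −44 bases and 147 bases wide, and its widest, of 569 bases, at −1692 bases. CD83, CSF2 and CXCL2 were without a listed peak. The median nearest distance of listed targets was 153 bases, against 265 bases over all listed genes.

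**Figure D3:**
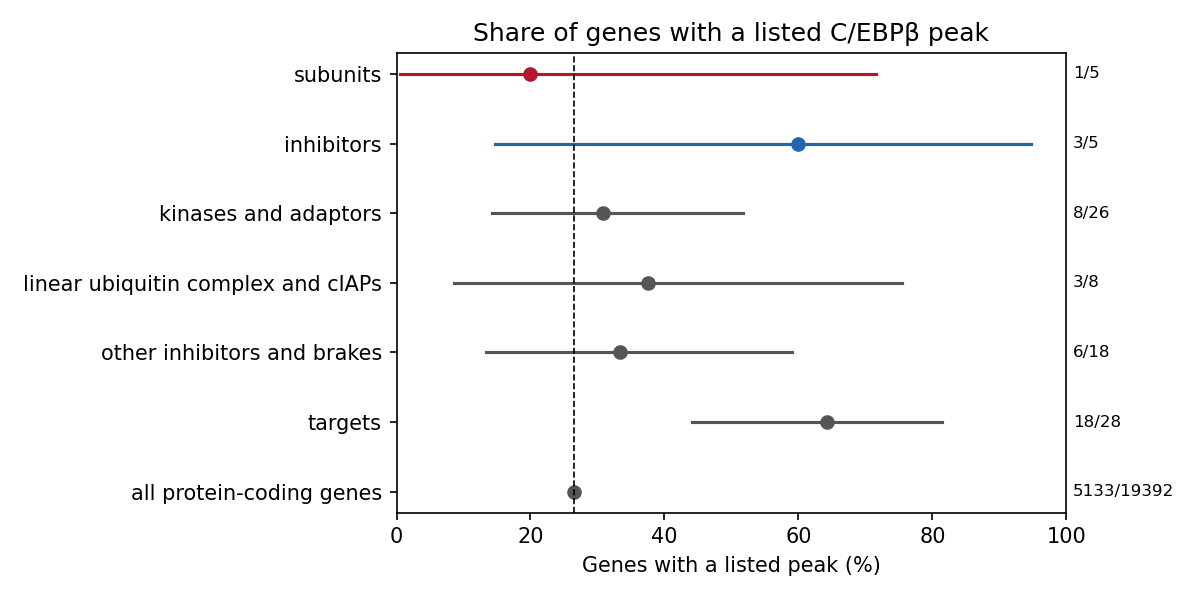
Share of genes with at least 1 listed C/EBPβ peak, in percent, for NF-κB subunit and inhibitor genes, the 4 pathway lists and all protein-coding genes. Points are shares, lines exact 95% binomial intervals that cover counting over genes only, and the dashed line is the share of all protein-coding genes. The intervals of subunits and inhibitors both span the dashed line, and the target list at 18 of 28 genes lies to its right.

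**Figure D4:**
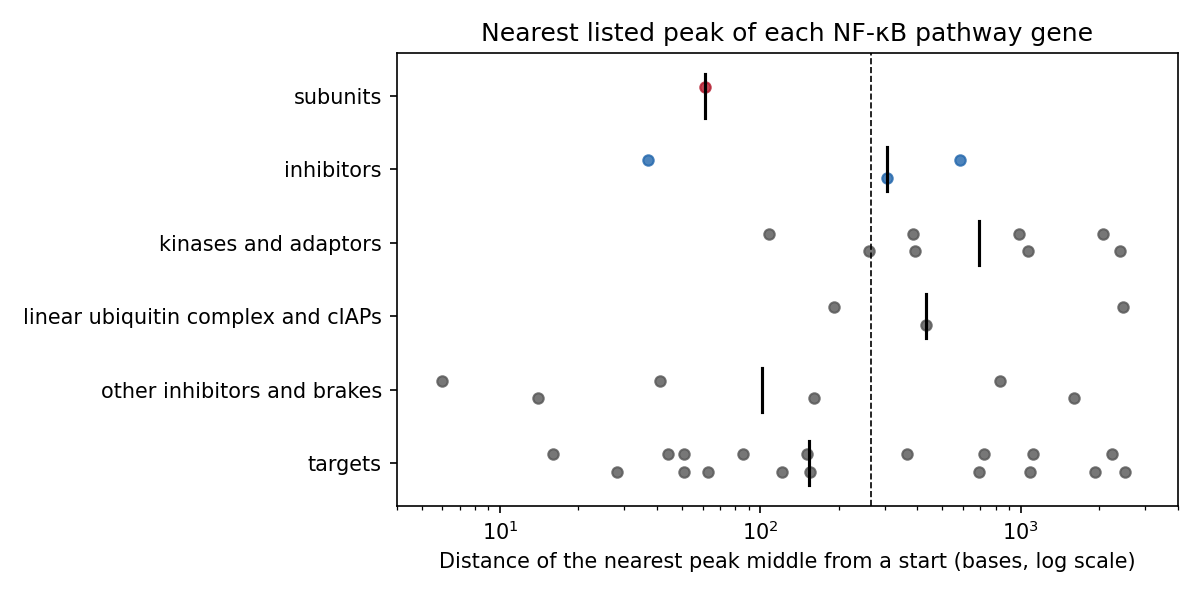
Absolute distance in bases, on a log scale, between a start and the middle of the nearest peak, for each listed gene of the NF-κB groups. Each point is 1 gene, short black bars are medians and the dashed line is the median of 265 bases over all listed genes. The subunit gene at 61 bases falls within the range of the inhibitor genes, 37 to 582 bases.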

How the data were processed

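Human build hg19 and the tools BWA (0.7.10), SAMtools and MACS2 (2.1.1) are named, without role or setting, per the submitters' processing notes. The authors deposited 1 list of peak and transcript pairs with start, end, distance and score. Peak threshold and use of the input were not given in the sources used here. Each deposited score was a fixed function of distance (largest residual 4.999889e-13) and holds no peak strength. Distance runs from a transcript start to the peak middle in genome direction.

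Rows were matched to a RefSeq table of GRCh38.p14 for names and gene order only, with 12331 of 12532 transcripts matched by accession. A gene was listed if 1 peak or more was paired with it. Protein-coding genes that have a curated transcript, chromosome Y left out, formed the background, which can hold genes absent from the authors' transcripts. Strand came from the promoter table. Intervals are exact (Clopper-Pearson) at 95%, covering counting over genes only. No p-values were computed, since there is 1 ChIP library. The counting was tested on simulated data. Genes named besides the 10 members were those sharing a member's peak and, from each list, the 3 listed genes nearest to a start, the 2 with most peaks and the first 3 in the alphabet without a peak. Other genes were named after their values were seen, and 1 gene under this rule is not reported here. Members and lists were chosen with earlier results of these data known. Tools were pandas 2.3.3, numpy 2.4.6, scipy 1.17.1 and matplotlib 3.10.9.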

Additional observations from a re-analysis of the deposited data

How the results depend on the processing

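Of 64 recomputed values, 56 stayed within 1.5 times the reported one. Some had little or no room to move. All subunit values rest on the 1 NFKB1 peak. All 6 peaks of the 10 genes are wider than the median, so that setting could not change their values. Without peaks also paired with genes outside the members, 2 of the 10 genes remained listed, against 18.6% of all protein-coding genes. Inhibitor genes then had 2 peaks, with a median width of 705 bases and a median nearest distance of 582 bases. The pathway lists fell less in the same setting. Listed were 6 of 26 kinases and adaptors, 2 of 8 genes of the linear ubiquitin complex list, 5 of 18 other inhibitors and 17 of 28 targets. With peaks within 1000 bases of a start, 5 of 26 kinases and adaptors were listed, against 20.9% of all protein-coding genes. With peaks wider than the median, 1 of 8 genes in the linear ubiquitin complex list was listed, against 15.4% of all protein-coding genes. Among genes with at least 2 curated transcripts, 8 of 12 targets were listed, where fewer genes enter, against 29.9% of all such genes. The median distance over all inhibitor peaks was 464 bases. The fall in counts under the first 3 settings follows from fewer peaks. Giving each peak only to its nearest start, or matching by deposited symbol alone, left the 10 genes' count at 4. The shares of all protein-coding genes were 23.4% and 24.6% in that order. Read depth is unknown, so peaks missed for depth cannot be counted. No paired analysis was possible because each group has 1 library.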

Other observations

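Peak names carry running numbers that rise with position, and numbers absent from the list lie between listed peaks. Around the TNFAIP3 peaks, 26 numbers are absent between the neighbouring listed peaks, at IFNGR1 and REPS1, or 14.7 per Mb, against 6.48 per Mb between listed peaks of the whole list. The values were 12.8 per Mb at NFKBIB, 7.23 at NFKB1 and 4.87 at NFKBIA, from 1, 3 and 5 absent numbers. The list does not state whether absent numbers are peaks away from starts.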
